A study of Mus musculus with 4 samples.

Results

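Genes of antigen presentation on major histocompatibility complex (MHC) class II were examined in the outer tissues of the mouse femoral artery (FA), which are mainly perivascular adipose tissue (PVAT), after wire injury of the vessel. The genes were taken by name from a list of 10 symbols and all 10 were among the 12661 genes with values. They are the class II chain genes *H2-Aa*, *H2-Ab1* and *H2-Eb1*, the chaperone genes *Cd74*, *H2-DMa* and *H2-DMb1*, the transactivator gene *Ciita*, and 3 genes linked to antigen-presenting cells, *Cd80*, *Flt3* and *Cd79b*, which are not themselves part of the class II machinery. All 4 libraries came from wild type C57BL/6 females that had been ovariectomized and were 11 weeks old by the labels. The 2 sham libraries are from sham-operated FAs and the 2 injury libraries from FAs injured by inserting a spring wire, both collected 48 h after the operation. Neither the labels nor the methods say whether a library is 1 mouse or a pool, so p-values measure the spread between these libraries, which may be partly technical.

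MHC class II molecules are heterodimers of an alpha and a beta chain that carry peptides from endosomes to the surface of dendritic cells, macrophages and B cells and show them to helper T cells. In the endoplasmic reticulum the dimer is held by the invariant chain (*Cd74*), proteases of the endosome trim that chain, and the H2-DM dimer (*H2-DMa*, *H2-DMb1*) exchanges its last fragment for peptide. Expression of these genes is controlled by CIITA, a coactivator that binds no DNA itself and is recruited to factors sitting on the X and Y boxes of class II promoters. C57BL/6 mice have the I-A dimer of *H2-Aa* and *H2-Ab1* on their cells but lack the I-E dimer, since the I-E alpha chain gene is not expressed in this strain, although *H2-Eb1* is transcribed.

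A pair of sequence words recurs in several of the class II promoters. RefSeq windows of GRCm38.p6, from 250 bases before to 50 after the start site, were matched for 6 of the 10 genes (*H2-Aa*, *H2-Eb1*, *H2-DMa*, *H2-DMb1*, *Cd80* and *Flt3*). *H2-Ab1*, *Cd74*, *Ciita* and *Cd79b* were not matched. The windows were searched on both strands for GNAAC, a core of the X box, followed after 24 to 30 bases by GATTGG, the Y box, which contains ATTGG, the reverse complement of the CCAAT motif. The words and their spacing were chosen after these promoters had been read, so a match is a description. The pair was found in 3 of the 6 matched genes and in 153 of all 32851 windows (0.466%). GATTGG alone was in 16.1% of windows and GNAAC alone in 84.8%. Among class II chain and chaperone genes 6 of the 8 with a window held the pair, *H2-Aa*, *H2-Eb1*, *H2-Eb2*, *H2-DMb1*, *H2-Oa* and *H2-Ob*. None of the 20 class I presentation genes with a window held it, nor did either of the 2 windows of *H2-DMa*. The stretches below are shown for the 3 genes of the list and for *H2-Ob* because they carry the shared pair, which lies 44 to 57 bases upstream of the start site at its near end. They are written 5′ to 3′ on the strand of the gene, with the X box core and the Y box in capitals.
H2-Aa (GRCm38.p6, chr17:34287855-34287916, minus strand): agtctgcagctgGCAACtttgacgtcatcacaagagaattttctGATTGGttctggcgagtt
H2-Eb1 (GRCm38.p6, chr17:34305764-34305824, plus strand): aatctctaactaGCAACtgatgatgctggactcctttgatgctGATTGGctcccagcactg
H2-DMb1 (GRCm38.p6, chr17:34153085-34153146, plus strand): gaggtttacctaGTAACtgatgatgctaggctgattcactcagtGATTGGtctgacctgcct
H2-Ob (GRCm38.p6, chr17:34238806-34238864, plus strand): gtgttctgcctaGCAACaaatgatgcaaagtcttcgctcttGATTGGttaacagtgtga

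Expression is given in deposited units, signed values on a log-like scale whose base is not stated. The values look centred for each gene separately, but no source gives the step, and the 4 values of a gene need not average 0. A difference between groups can be read from this scale, but a fold change cannot, nor can the abundance of a gene or a ranking of genes by level. Sequencing depth is unknown. Groups were compared with limma, in all 12661 genes, with Benjamini-Hochberg adjustment, and a gene was called at an adjusted p under 0.05. Among all of them, 941 genes (7.43%) were called, 476 of them (3.76%) higher after injury. In 31.6% of all genes both injury libraries lay above both sham libraries. An exact permutation test of 2 libraries against 2 cannot go below p = 0.333, so every call rests on the variance that limma shares across genes.

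Most of the 10 genes were called higher in the injured tissue. Of the 10 genes 6 were called higher and none lower, against the 3.76% of all genes that were called higher. They were *H2-Aa*, *H2-Ab1*, *H2-Eb1*, *H2-DMa*, *H2-DMb1* and *Cd80*. Both injury libraries exceeded both sham libraries in 9 of the 10, all but *Cd79b*, where the share over all genes was 31.6%. The median difference over the 10 genes was 1.23 deposited units, and over all genes it was 0.0085. Because this is bulk tissue, more cells of a type and more RNA per cell cannot be told apart in any of these values. When injury replicate 1 was left out, 2 of the 6 were still called, *H2-Eb1* and *H2-DMb1*, where limma called 284 of the 12661 genes. When injury replicate 2 was left out 9 of the 10 were called, all but *Cd79b*, where limma called 1790 of the 12661. When sham replicate 1 was left out limma called 0 genes in all, and when sham replicate 2 was left out it called 1, which was not in the list, so every call below also needs both sham libraries.

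**Figure D1:**
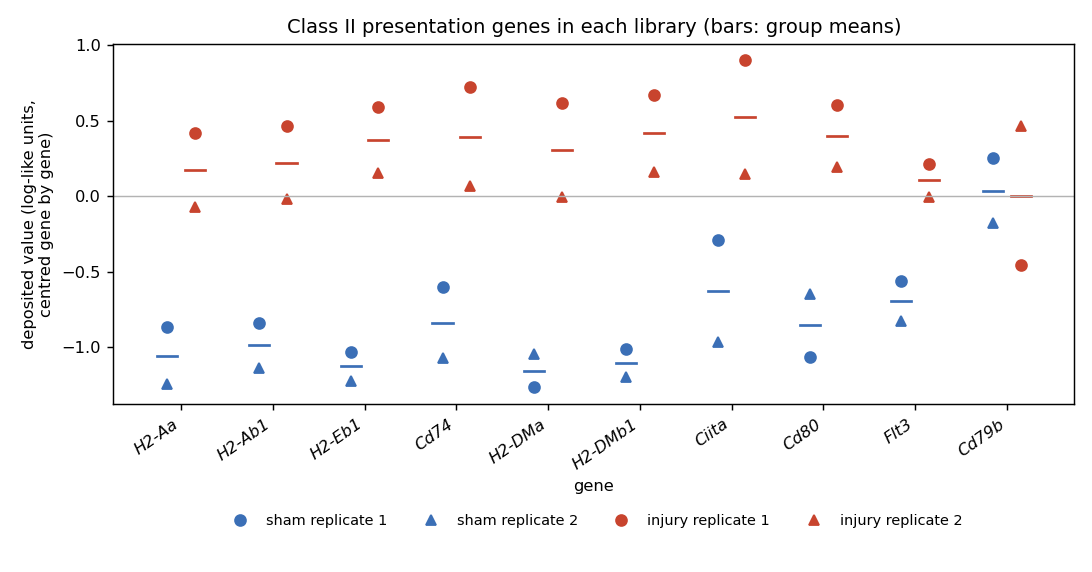
Deposited value (vertical axis, log-like units that look centred for each gene) of the 10 genes in the sham libraries (blue) and the injury libraries (red), with circles for replicate 1, triangles for replicate 2 and short bars for the group means. In every gene but *Cd79b* the red points lie above the blue points, and injury replicate 1 lies above injury replicate 2.

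The 3 chain genes rose together after injury. *H2-Aa*, the alpha chain of I-A (mm9, chromosome 17 from 34406276 to 34424772, minus strand), was at -0.87 and -1.24 after sham operation and at 0.42 and -0.070 after injury. The means differed by 1.23 with a standard error of 0.23 (adjusted p = 0.0413, limma). *H2-Ab1*, the beta chain of the same dimer (chromosome 17 from 34400154 to 34406363, plus strand), was at -0.84 and -1.14 in the sham libraries and at 0.46 and -0.015 with injury. The partners of the dimer thus had nearly the same value in each library, and their differences, 1.23 and 1.21 (standard error 0.21, adjusted p = 0.0378 from limma for *H2-Ab1*), were closer to each other than the libraries of a group were. Their gene models in mm9 overlap by 88 bases at the 3′ ends on opposite strands, and the strand setting of the read counting is not stated. *H2-Eb1*, the beta chain of I-E (chromosome 17 from 34442828 to 34453144, plus strand), was at -1.03 and -1.22 after sham operation and at 0.59 and 0.15 after injury. Its groups were the most widely separated of the chain genes, and its means were 1.49 apart (adjusted p = 0.0291 from limma, standard error 0.19).

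Of the chaperones, both chains of the H2-DM peptide exchanger rose, while the invariant chain and the H2-O beta chain missed the threshold. *H2-DMa* (chromosome 17 from 34272127 to 34276046, plus strand) was at -1.27 and -1.04 in the sham libraries and at 0.62 and -0.0026 with injury. Injury exceeded sham by 1.46 with a standard error of 0.24 (adjusted p = 0.0330, limma). *H2-DMb1* (chromosome 17 from 34290017 to 34297168, plus strand) stood at -1.01 and -1.20 after sham operation against 0.67 and 0.16 after injury. This was the largest difference among the 10 genes, 1.52 with a standard error of 0.21 (adjusted p = 0.0291, limma). *H2-DMb2*, a close copy of *H2-DMb1* with which reads could be shared, differed by 0.51 and was not called (adjusted p = 0.132 from limma).

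*Cd74* (chromosome 18 from 60963502 to 60972300, plus strand) encodes the invariant chain. It was at -0.60 and -1.07 after sham operation and at 0.72 and 0.068 after injury, so the groups were separated by 0.67 units. Its difference of 1.23 was as large as that of *H2-Aa*, with a wider standard error (0.28), and was not called (adjusted p = 0.0567 from limma). It was called when injury replicate 2 was left out (adjusted p = 0.0185 from limma). *H2-Ob*, a chain of the H2-O dimer that restrains H2-DM, differed by 0.77 (adjusted p = 0.0537 from limma). Unlike the 6 genes of the list that are chains or chaperones, *H2-Ob* was lower in injury replicate 1 (0.22) than in injury replicate 2 (0.51).

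*Ciita*, the transactivator of these genes, lies on chromosome 16 of mm9 from 10480237 to 10527657, plus strand. The annotation holds 2 models of this name. *Ciita* stood at -0.29 and -0.96 after sham operation and at 0.90 and 0.15 after injury. Every injury value was above every sham value, but libraries of the same group were 0.67 (sham) and 0.75 (injury) apart, and the difference of 1.15 (standard error 0.33) was not called (adjusted p = 0.0924 from limma). It too was called when injury replicate 2 was left out (adjusted p = 0.0339 from limma).

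Among genes of class II transcription the share called was near that of all genes. Of 15 analysed, *Ciita* among them, 1 was called higher and none lower, beside 7.43% of all genes called in either direction, and their median difference was 0.24. The called gene was *Ifngr2*, a chain of the interferon gamma receptor, at -0.59 and -0.64 after sham operation and at 0.52 and 0.13 after injury (difference 0.94, adjusted p = 0.0424 from limma), and it was not called when injury replicate 1 was left out. *Spi1*, the gene of the myeloid factor PU.1, had a larger difference, 1.64, and an adjusted p of 0.0509 from limma, and it was called when either injury replicate was left out (1.11 to 2.16 over the libraries left out). The subunits of RFX, which binds the X box, differed by -0.14 (*Rfx5*), 0.32 (*Rfxap*) and 0.35 (*Rfxank*). Those of NF-Y, which binds the Y box, differed by 0.21 (*Nfya*), -0.13 (*Nfyb*) and 0.18 (*Nfyc*). None of these subunits was called, and the intervals of all but *Rfxank* included 0. *Irf1*, *Irf2*, *Jak1*, *Jak2*, *Ifngr1* and *Creb1* were not called either, with differences from -0.22 for *Jak2* to 0.46 for *Irf2*.

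Of 10 genes of endosomal antigen processing, 2 were called higher and none lower, beside 3.76% of all genes called higher. *Ctss*, the cathepsin that cleaves the invariant chain, was at -1.65 and -1.32 in the sham libraries and at 1.12 and 0.27 with injury. The increase of 2.18 with a standard error of 0.31 (adjusted p = 0.0291, limma) was above that of any of the 10 class II genes. *Ifi30*, a thiol reductase that opens disulfide bonds of antigens, rose by 1.43 (adjusted p = 0.0291 from limma). Both were still called when injury replicate 1 was left out. The other 8 were not called. Among them *Ctsz*, *Lgmn*, *Ctsd* and *Ctsb* had differences of 0.89, 0.75, 0.74 and 0.64, and *Ctsl*, *Sppl2a*, *Cst3* and *Ctsh* of 0.28, 0.27, 0.19 and -0.17. *Ctsz*, *Lgmn* and *Ctsd* were called when injury replicate 2 was left out. Among the genes of class II turnover, *Cd83*, which protects class II molecules from degradation, rose by 1.41 (adjusted p = 0.0444 from limma), and was not called when injury replicate 1 was left out. *March1*, a ubiquitin ligase that removes them from the surface, differed by 1.31 with a standard error of 0.36 and was not called (adjusted p = 0.0854), nor was *March8* (-0.11). *March1* was called when injury replicate 2 was left out (1.85), and *Cd83* lost its call with a trended prior (adjusted p from limma up to 0.0574 over all fits to the 4 libraries).

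*Cd80* (chromosome 16 of mm9 from 38459013 to 38495821, plus strand) encodes B7-1, a ligand that gives the second signal to T cells through CD28. In the sham libraries it was at -1.06 and -0.65, and in the injured tissue at 0.61 and 0.20. The groups were clear of each other, and injury was higher by 1.25 with a standard error of 0.22 (adjusted p = 0.0373, limma). It was called in 6 of the 7 fits to all 4 libraries, and missed with a block for the replicate number (adjusted p = 0.0544 from limma). *Cd80* was not called when injury replicate 1 was left out (adjusted p = 0.0808 from limma). Of 11 ligands of T cell co-stimulation or co-inhibition analysed, 3 were called higher and none lower, beside 3.76% of all genes called higher. The others called were *Cd86*, the second B7 ligand of CD28 (difference 1.30, adjusted p = 0.0294 from limma), and *Cd48*, a ligand of the CD2 family (1.43, adjusted p = 0.0476), and neither these nor *Cd80* was called without injury replicate 1. *Cd48* was called in 3 of the 7 fits to all 4 libraries, with an adjusted p of up to 0.0616. *Cd274*, the gene of the inhibitory ligand PD-L1, was at -0.098 and -0.071 after sham operation and at 1.49 and 0.35 after injury, a spread within the injury group that left it uncalled (adjusted p = 0.148 from limma). *Icosl*, *Lgals9* and *Icam1* had lower means after injury, with differences of -0.52, -0.18 and -0.95, and *Tnfsf9*, *Cd40*, *Cd276* and *Pvr* had higher ones, 1.08, 0.91, 0.64 and 0.072. None of these was called. When injury replicate 2 was left out *Cd274*, *Tnfsf9* (1.52), *Cd40* (1.41) and *Cd276* (1.07) were called, and when injury replicate 1 was left out the latter 3 were at 0.64, 0.40 and 0.22.

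**Figure D2:**
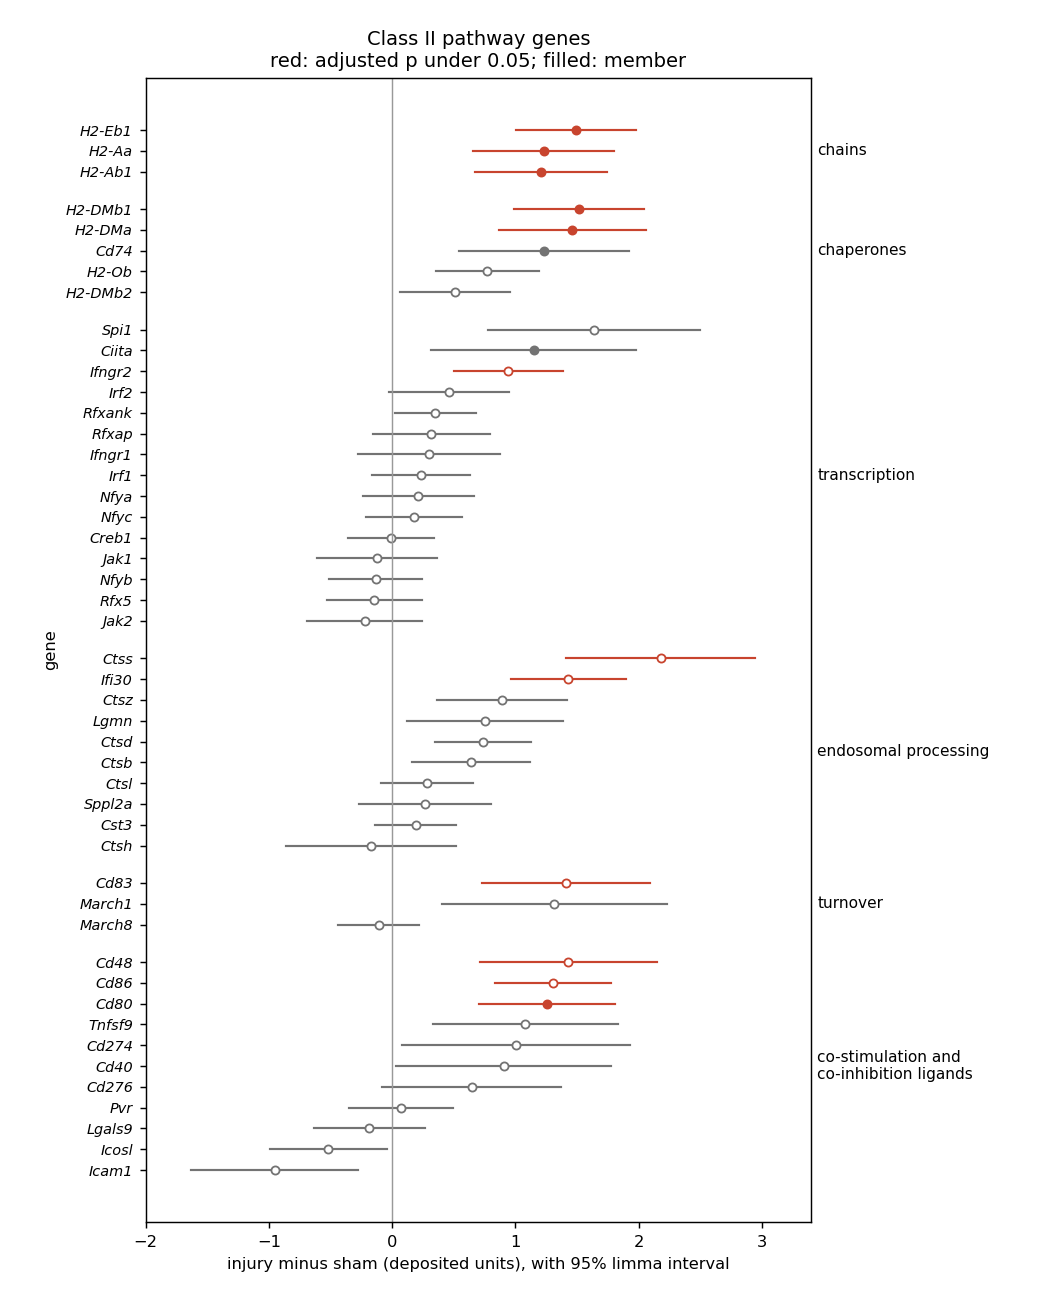
Injury minus sham difference (horizontal axis, deposited units) with its 95% limma interval for the genes of 6 lists of the class II pathway. Red marks an adjusted p under 0.05 and filled points are genes of the list of 10. The chain genes and H2-DM lie between 1.21 and 1.52, and the RFX and NF-Y subunits between -0.14 and 0.35.

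*Flt3* encodes the receptor through which FLT3 ligand maintains dendritic cells and their precursors (chromosome 5 of mm9 from 148142317 to 148212065, minus strand). It was at -0.56 and -0.83 in the sham libraries and at 0.21 and -0.0033 in the injury libraries. The groups did not overlap, and the difference of 0.80 (standard error 0.17) missed the threshold narrowly (adjusted p = 0.0502 from limma). Over all fits to the 4 libraries that adjusted p ranged from 0.0501 to 0.0590. Of 21 genes of dendritic cells analysed, *Flt3* among them, none was called lower and 2 were called higher, beside 7.43% of all genes called in either direction. The 2 were *Ccl22* (1.31, adjusted p = 0.0285 from limma), a chemokine of activated dendritic cells and macrophages, and *Clec10a* (1.18, adjusted p = 0.0370), a lectin that macrophages also carry. The median difference of the 21 was 0.21. *Zbtb46*, a transcription factor that marks classical dendritic cells and is also made by endothelium, was at 0.71 and 0.53 after sham operation and at -0.056 and 0.042 after injury (difference -0.63, adjusted p = 0.0596 from limma, not called). In the same libraries 3 of 10 endothelial genes were called lower and none higher, *Vwf* (-2.40), the gene of von Willebrand factor, *Pecam1* (-1.04) and *Erg* (-0.84), and 1 was called when injury replicate 1 was left out. The part of the endothelium in the value of *Zbtb46* was not tested.

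*Cd79b*, the beta chain of the B cell receptor complex (chromosome 11 of mm9 from 106172655 to 106176076, minus strand), was the exception in the list. It was at 0.25 and -0.18 after sham operation and at -0.46 and 0.46 after injury, so that the injury libraries bracketed the sham libraries. Injury minus sham came to -0.033 (95% interval from -0.87 to 0.80, adjusted p = 0.957 from limma), and its sign flipped after quantile normalization (0.051) and after scaling of the columns to one spread (0.050). It was 0.43 when injury replicate 1 was left out and -0.49 when injury replicate 2 was. *Cd79a* and *Ms4a1*, which define B cells, were not analysed here. Of 10 genes of the B cell list that were analysed, 2 were called higher and none lower, beside 3.76% of all genes called higher. Their median difference was 0.88, and 8 had both injury values above both sham values, where 31.6% of all genes did. *Cd79b* had the lowest difference of the 10. The genes called were *Btk* (1.55, adjusted p = 0.0291 from limma) and *Cd22* (0.98, adjusted p = 0.0368). *Btk* is a kinase of B cells that myeloid cells also use. When injury replicate 1 was left out 1 gene of the B cell list was called and 0 of the T and NK cell list. *Cd3e* and *Cd3d* were not analysed here either. Among 10 genes of T and NK cells only *Klrb1c*, an NK cell receptor, was called (1.07, adjusted p = 0.0435 from limma), beside 7.43% of all genes. *Lck*, the kinase of the T cell receptor, was at -0.50 and -0.26 after sham operation and at 0.64 and -0.22 after injury. It was not called, and its difference ran from 0.16 to 1.02 with 1 library left out.

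Position in the genome was not used to choose the genes, and 5 of the 10 lie in the class II region of chromosome 17, from the start of *H2-DMa* at 34272127 to the end of *H2-Eb1* at 34453144 in mm9, a span of 181 kb. The table holds 11 genes of this span. The 5 genes of the list were all called higher, with differences from 1.21 to 1.52. The other 6 were not called, although both injury libraries lay above both sham libraries in each, as in 31.6% of all genes. Between *H2-DMb1* and *H2-Ob* sit 4 genes that serve MHC class I, the immunoproteasome subunits *Psmb9* and *Psmb8* and the peptide transporter chains *Tap1* and *Tap2*. Their differences were 0.45, 0.33, 0.65 and 0.23. The 5 genes of the list and *H2-Ob* (0.77) on either side of them had larger differences than each of the 4, while that of *H2-DMb2* (0.51) lay among theirs. This contrast was not tested with a model.

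**Figure D3:**
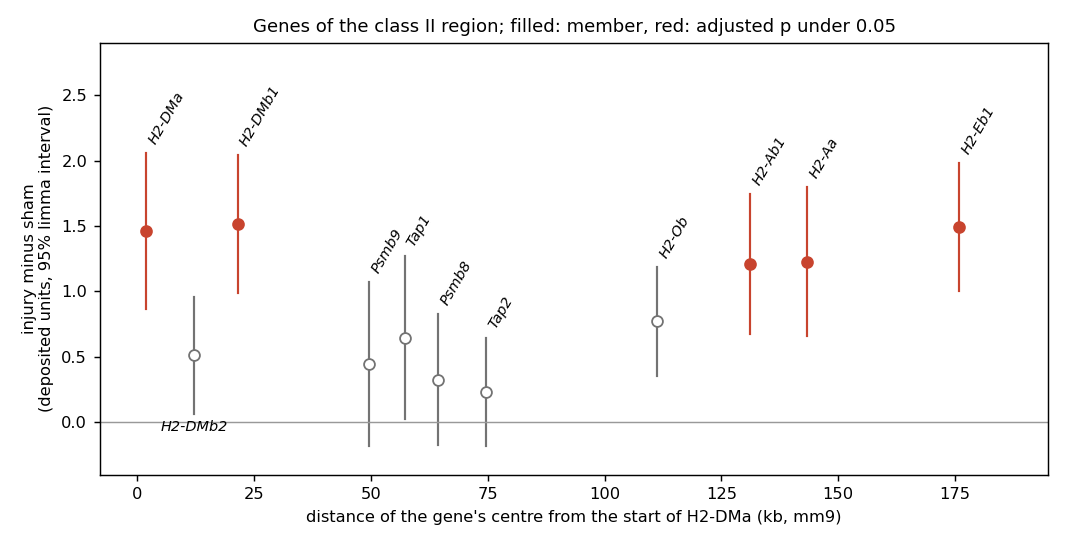
Injury minus sham difference (vertical axis, deposited units) with its 95% limma interval for the 11 genes of the class II region, placed by the distance of their centre from the start of H2-DMa (horizontal axis, kb). Filled red points are the 5 genes of the list, all at 1.21 or above, and open grey points are the other genes, all at 0.77 or below.

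The genes of class I presentation had smaller differences. Of 23 of them analysed none was called by limma, and 2 had an unadjusted p under 0.05, where 3739 of the 12661 genes did. The median difference was 0.31. Both injury libraries lay above both sham libraries in 15 of the 23, where the share over all genes was 31.6%. *B2m*, the light chain of class I molecules and the reference gene of the study's qRT-PCR on tissues, was at -0.21 and -0.10 after sham operation and at 0.38 and 0.042 after injury (difference 0.37, 95% interval from -0.054 to 0.80, adjusted p = 0.215 from limma). *H2-K1*, a class I heavy chain, differed by 0.32 (adjusted p = 0.234), and *Nlrc5*, which does for class I what CIITA does for class II, by 0.46 (adjusted p = 0.311). With injury replicate 1 left out *Nlrc5* differed by 0.077 and *B2m* by 0.20, and with injury replicate 2 left out by 0.84, where *Nlrc5* was called, and by 0.54. To set class II against class I within a library, the value of *B2m* was subtracted from each gene. *H2-Eb1* minus *B2m* was -0.82 and -1.12 in the sham libraries and 0.20 and 0.11 in the injury libraries. The difference between groups was 1.12, and the injury libraries, 0.44 apart for *H2-Eb1* itself, were then 0.095 apart. After subtraction 9 of the 10 genes still had both injury libraries above both sham libraries, where 8.74% of all genes did. Their differences from sham ran from 0.43 for *Flt3* to 1.15 for *H2-DMb1*, and for *Cd79b* it was -0.40. The exact permutation p of each of these 9 was 0.333, the smallest that 4 libraries can give. Of the macrophage and monocyte list, *Itgax* (0.95), *Cd68* (0.84) and *Adgre1* (0.71) also lay above sham after subtraction, and so did *Tap1* of class I (0.28). *Tap2* and *H2-D1*, a class I heavy chain, lay below, and the groups of *Psmb8*, *Psmb9* and *H2-K1* overlapped.

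Many genes of macrophages and monocytes were higher in the same libraries. Of 21 analysed 11 were called higher and none lower, with a median difference of 1.32, and 4 were called when injury replicate 1 was left out and 19 when injury replicate 2 was. *Ccr2* had the largest difference among those called (2.30, adjusted p = 0.0285 from limma), followed by *Fcgr1* (2.14, adjusted p = 0.0449) and *Trem2* (1.82, adjusted p = 0.0285). The smallest differences among those called were 1.19 for *C1qc* and 1.24 for *C1qa*, chains of complement C1q. *C1qa* was called in 4 of the 7 fits to all 4 libraries, and with a trended prior 8 genes of the list were called. *Lyve1* and *Cd163*, markers of resident macrophages of which *Lyve1* is also made by lymphatic endothelium, lay on the other side, each injury value under each sham value, and were not called (*Lyve1* -1.50, adjusted p = 0.0610, and *Cd163* -0.81, adjusted p = 0.191, from limma). They were picked out after their values were seen, as the only 2 of the 21 with both injury libraries below both sham libraries. In 17 of the 21 both injury libraries lay above both sham libraries, where the share over all genes was 31.6%. Other markers of resident macrophages in the list are not given here. *Csf1r*, the receptor of the macrophage growth factor, was at -1.20 and -1.31 after sham operation and at 0.36 and -0.22 after injury (1.33, adjusted p = 0.0344 from limma). *Itgax*, the CD11c gene of dendritic cells and many macrophages, rose by 1.32 (adjusted p = 0.0301). *Adgre1* (F4/80) and *Cd68* differed by 1.08 and 1.21 and were not called (adjusted p = 0.147 and 0.0628 from limma). Both were called when injury replicate 2 was left out (1.70 and 1.63), and they differed by 0.46 and 0.80 when injury replicate 1 was. Averaged over the 21 genes, the list was at -0.95 and -0.92 in the sham libraries and at 0.39 and -0.082 in the injury libraries. The part of macrophage number in the class II values was not tested.

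When *Csf1r* was subtracted in each library, the differences of the 6 class II chain and chaperone genes lay between -0.12 for *H2-Ab1* and 0.19 for *H2-DMb1*. *H2-Aa* minus *Csf1r* was 0.33 and 0.070 in the sham libraries and 0.054 and 0.15 in the injury libraries, and these groups overlapped. Those of *H2-Ab1*, *Cd74*, *H2-DMa*, *Ciita* and *Cd80* overlapped as well. *H2-Eb1* and *H2-DMb1* remained above sham in both injury libraries, by 0.17 and 0.19 in the mean, where 1.37% of all genes were above in this way. *Flt3* and *Cd79b* were below, by -0.53 and -1.36. *Csf1r* itself rose by 1.33, so a gene with no difference of its own comes out below. The class I genes *Tap1*, *Tap2*, *Psmb8*, *Psmb9*, *H2-K1* and *H2-D1* were below too, and the share of all genes below was not computed. For *H2-Eb1*, *H2-DMb1*, *Flt3* and *Cd79b* the exact permutation p was 0.333.

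**Figure D4:**
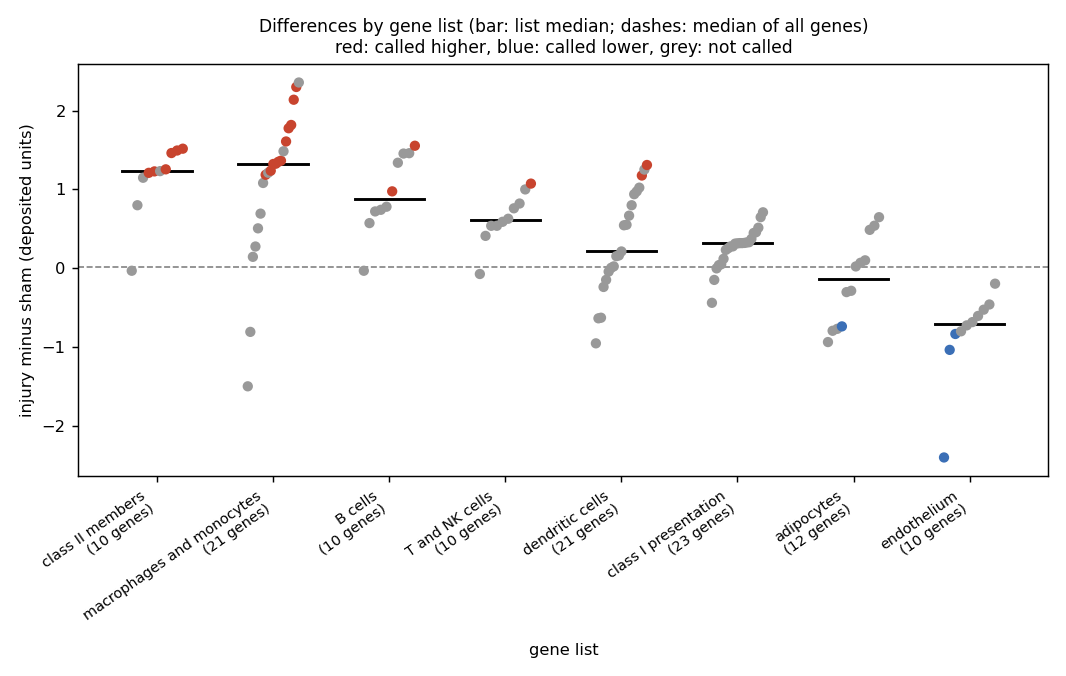
Injury minus sham difference (vertical axis, deposited units) of each gene in 8 lists, with a bar at the median of the list and a dashed line at the median of all genes. Red points were called higher, blue points lower and grey points were not called. The medians of the class II genes (1.23) and of the macrophage and monocyte genes (1.32) lie above those of the class I genes (0.31), the adipocyte genes (-0.13) and the endothelial genes (-0.71), while single genes of these lists overlap.

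Likeness in pattern to the chains was measured over the whole table. The measure was the Euclidean distance over the 4 libraries, each gene centred on its own mean, to the mean of *H2-Aa*, *H2-Ab1* and *H2-Eb1*. The nearest 5 other than the chain genes themselves were *Fermt3* (0.049), an integrin activator of blood cells, *Fcgr3* (0.055), an Fc receptor, *Prdm1* (0.088), a transcription factor of lymphocytes and myeloid cells, *Apbb1ip* (0.089), an adaptor of integrin activation, and *C1qa* (0.11), a complement chain made by macrophages. *H2-Ab1* and *H2-Aa* were themselves at 0.10 from that mean, and *H2-Eb1* was farther away, at 0.20. With 4 libraries such a distance mostly reflects the step between groups and the order of the libraries within them.

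Libraries of one group were not equal for the class II genes. The value in injury replicate 1 was above that in injury replicate 2 in 9 of the 10 genes, by a median of 0.48 units over the list, against 48.9% of all genes and a median of -0.0064. All 23 class I genes and 17 of the 21 macrophage and monocyte genes were also higher in injury replicate 1. In the sham group replicate 1 was above replicate 2 in 8 of the 10 genes, all but *H2-DMa* and *Cd80*. Adipocyte genes mark the main tissue of the samples. Over the 12 analysed the differences ran from -0.94 to 0.65 with a median of -0.13. Both injury libraries lay above both sham libraries in 2 of them and below in 5, beside 4003 and 3831 of the 12661 genes. *Adipoq* was at 0.13 and 0.25 after sham operation and at -0.98 in injury replicate 1 and -0.24 in injury replicate 2. It was called when injury replicate 2 was left out (-1.17). *Plin1*, which coats lipid droplets, was the only 1 of 12 adipocyte genes that was called, with a difference of -0.74 (adjusted p = 0.0444 from limma), and it was not called when injury replicate 1 was left out. Of 3 lymph node stromal genes analysed none was called by limma, and none had an unadjusted p under 0.05.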

How the data were processed

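Per the labels and the methods, reads were trimmed with cutadapt 1.18 and Trimmomatic 0.39, aligned to mm9 with STAR 2.6.0a, counted per gene with featureCounts and tested with DESeq2 1.28.0 by the authors. The deposited values are not counts. They are signed decimals from -2.27 to 6.45 for 12661 gene symbols, with each library's median within 0.0062 of 0. The step that made them, their log base, the centring and the filter on genes are not given in the sources used here, so no pseudocount or filter was applied.

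Injury and sham were compared with limma 3.58.1 in R 4.3.3 (group as the only term, 2 residual and 3.48 prior degrees of freedom, two-sided) and Benjamini-Hochberg adjustment over all genes, and the fit was tested on simulated data. Intervals are 95% limma intervals. The 10 genes, the lists and the tests were chosen with earlier results of these data known, and lists are described by counts and medians only. Genes named by rule are the 10, all measured genes of 6 class II pathway lists, of other lists the 3 highest and 3 lowest called genes and those that define the cell type, and the 5 nearest in pattern. These are the 77 genes followed through the alternatives. Outside the rule, *Psmb9*, *Psmb8*, *Tap1* and *Tap2* are named by position, *H2-D1* in the subtractions, and *Lyve1* and *Cd163* after their values were seen. The values relative to *B2m* and *Csf1r* and the promoter search were added after the data had been seen. Coordinates are from GENCODE for NCBIM37 (mm9), which matched 11682 symbols (92.3%). Python 3.11.15 with pandas 2.3.3 made the tables, and matplotlib 3.10.9 the plots. Alternatives were a block for the replicate number, each library left out in turn, columns scaled to one spread or quantile normalized, a variance prior that was robust or had a trend, a threshold of 0.1, a minimum difference of 1, and genes with identical values counted once. Count models were not run. A gene of the transcription list and a gene of the B cell list are not reported here and are left out of the counts and medians of their lists.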

Additional observations from a re-analysis of the deposited data

How the results depend on the processing

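The depth of the libraries is unknown, and 2 libraries a group limit every call. In the alternatives that kept all 4 libraries, the calls of *H2-Aa*, *H2-Ab1*, *H2-Eb1*, *H2-DMa* and *H2-DMb1* held in each fit at the threshold of 0.05, with adjusted p from limma between 0.0227 and 0.0485, and no gene of the 10 other than *Cd79b* changed sign. *Cd79b* became 0.051 after quantile normalization and 0.050 with columns scaled to one spread, and *Creb1* 0.0010 and 0.0021. At an adjusted p under 0.1 there were 2317 of all 12661 genes called, with *Cd74* (1.23), *Ciita* (1.15) and *Flt3* (0.80) among them. With a minimum difference of 1 there were 591. The looser threshold called 4 of 5 class II chaperone genes, 3 of 15 of class II transcription, 5 of 10 of endosomal processing and 2 of 3 of turnover. It called 5 of 11 co-stimulation ligands, 8 of 21 genes of dendritic cells, 6 of 10 of B cells and 3 of 10 of T and NK cells. Of adipocyte genes it called 3 of 12 and of endothelial genes 7 of 10. These counts stand beside the 2317 of all 12661 genes. The minimum difference left 0 genes of class II transcription, 1 of B cells and 0 of adipocytes. Scaled columns gave 2 genes of class II transcription, and the prior with a trend gave 2 of transcription and 0 of turnover. The cause of the changes with scaling and with the trend was not tested.

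Over all genes the deviations of same-numbered libraries had a correlation of -0.094, which cannot show whether the numbers pair the samples. A block for the replicate number lowered the standard error of *H2-Aa*, *H2-Ab1*, *H2-Eb1*, *Cd74*, *H2-DMb1*, *Ciita* (0.33 to 0.16) and *Flt3*. It raised that of *H2-DMa*, *Cd80* (0.22 to 0.24) and *Cd79b*. A fit with the replicate block called 684 genes, of which 381 rose and 303 fell. *Cd74* (1.23, adjusted p = 0.0359 from limma) and *Ciita* (1.15, adjusted p = 0.0363) were then called and *Cd80* (1.25, adjusted p = 0.0544) was not. The block called 2 genes of class II transcription, *Ciita* and *Spi1* but not *Ifngr2* (adjusted p = 0.0510), 1 co-stimulation ligand, 0 of T and NK cells and 0 of adipocytes. In turnover it called *March1* in place of *Cd83*.

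With 1 library left out, its group's remaining library is assumed to vary like the other group. The number of genes called then ran from 0 to 1790, and of the 10 genes from 0 to 9. The lists ran from 0 to 3 for class II chains, chaperones, transcription and endothelium, 0 to 5 for endosomal processing and B cells, 0 to 2 for turnover, 0 to 7 for co-stimulation ligands and dendritic cells, 0 to 4 for class I and adipocytes, 0 to 6 for T and NK cells and 0 to 19 for macrophages and monocytes. Differences ranged from 0.98 to 1.47 for *H2-Aa*, 0.97 to 1.45 for *H2-Ab1*, 1.28 to 1.71 for *H2-Eb1*, 0.91 to 1.56 for *Cd74*, 1.15 to 1.77 for *H2-DMa*, 1.26 to 1.77 for *H2-DMb1*, 0.77 to 1.53 for *Ciita*, 1.05 to 1.46 for *Cd80*, 0.67 to 0.93 for *Flt3* and -0.49 to 0.43 for *Cd79b*. Among the 77 genes followed through the alternatives, more gained than lost a call without injury replicate 2. More lost than gained a call without injury replicate 1. Among those 77 other than *Cd79b* whose sign changed, *Creb1* ranged from -0.075 to 0.061, *Jak1* from -0.33 to 0.083 and *Ctsh* from -0.52 to 0.19. *Sppl2a* ranged from -0.0097 to 0.55, *Lgals9* from -0.37 to 0.0037 and *Pvr* from -0.096 to 0.24.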
